A study of Mus musculus with 20 samples.

Results

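Normal murine mammary gland (NMuMG) cells can take a mesenchymal state by more than one route, and a pair of these routes was sequenced in the same kind of library: silencing of the RNA-binding protein hnRNP E1 (E1KD) and treatment with TGFβ. The comparison described here sets the 2 E1KD libraries directly against the 2 libraries of TGFβ-treated NMuMG. A gene was included if it reached 1 CPM (1 count per 1e6 reads) in at least 2 of these 4 libraries, which left 14412 of the 54986 genes in the table. Of these, 13254 reached 1 CPM in both groups, 762 in the E1KD libraries only and 396 in the TGFβ libraries only.

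The study sequenced RNA from NMuMG cultures to ask which transcripts accompany epithelial-mesenchymal transition (EMT) and breast tumor progression. NMuMG is an immortal epithelial line derived from normal mouse mammary tissue, and all 4 libraries come from it, as 2D cultures extracted with Trizol. The E1KD cells carry an shRNA against hnRNP E1, whose gene is Pcbp1, and received no TGFβ. The TGFβ-treated cells are labelled wild type, without an shRNA, and the labels give neither dose nor length of treatment, while the study describes several days of it for this transcriptome. The shRNA vector, any selection and the time in the mesenchymal state cannot be told apart from the silencing itself in this comparison. Untreated NMuMG and cells that had grown out of an E1KD tumor (M1P) or out of its lung metastases (L1P) were sequenced in the same way, with 2 libraries each, and their levels are given for orientation. A line made from E1KD with an added scrambled shRNA (E1KD SCR) and a line of NMuMG carrying an empty vector come from a second kind of library, and they were compared only with each other. Nothing in the labels says that the 2 replicates of a group were separate cultures, so p-values measure the spread between libraries, which may be technical.

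As background, TGFβ binds a pair of receptor kinases that phosphorylate Smad2 and Smad3, and the Smads enter the nucleus and switch on genes of extracellular matrix, contractility and protease control. In epithelial cells the same signal also stops the cell cycle, in part by lowering Myc and the Id proteins and by raising CDK inhibitors. hnRNP E1 binds C-rich RNA and holds back translation or splicing of some mesenchymal transcripts. TGFβ signaling through Akt2 releases it, so its silencing is used to enter EMT without the upstream signal.

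Pcbp1 itself was read first. It stood at 16.6 and 14.2 CPM in the E1KD libraries and at 210.4 and 219 CPM in the TGFβ libraries, with 287 and 312 CPM in untreated NMuMG. E1KD therefore held the low values and the groups did not overlap, with a log2 fold change (E1KD minus TGFβ) of -3.72 ± 0.09 (SE; adjusted p = 3.70e-14, limma). It stayed low at 26.5 and 27.6 CPM in M1P and at 28.6 and 30.5 CPM in L1P.

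The libraries were scaled by the authors to 50.8 and 54.1 (E1KD) and 59.9 and 60.03 (TGFβ) times 1e6 reads, so that 3 reads are worth between 0.04998 and 0.0591 CPM. One library stands apart. Over the 14412 genes, E1KD replicate 1 read higher than replicate 2 by a median of 0.32 on the log2(CPM + 1) scale, and 793 genes differed by more than 1 between them, while the other 9 groups of the series held between 0 and 4 such genes. Cytosolic ribosomal protein genes summed to 12692 CPM in E1KD replicate 1, 6528 CPM in replicate 2, and between 3835 and 6538 CPM in the TGFβ, NMuMG, M1P and L1P libraries. Of the 77 such genes tested, 36 were called higher in E1KD and only 4 of them in every setting defined below, so that they are not described as a difference between the states. Among the markers of cell types fixed for the line, 5 of 8 epithelial markers reached 1 CPM in E1KD and 6 of 8 after TGFβ, with Epcam and Cldn3 at 0 in both E1KD libraries and both untreated NMuMG libraries. The summed markers of endothelium, fat or red cells never exceeded 0.630 CPM. Leukocyte markers summed to between 2.88 and 4.50 CPM in E1KD and between 6.48 and 7.25 CPM after TGFβ, with 2 of 8 at 1 CPM in each group and Adgre1 at 0 in both, and Csf1r stood at 1.65 and 1.02 CPM in E1KD against 4.45 and 4.76 CPM. Fibroblast markers summed to 0.795 and 1.52 CPM in E1KD and 42.9 and 51.6 CPM after TGFβ, nearly all of it Col1a1 and Pdgfrb, with Col1a2 at 0 in the 4 libraries, and the part of such cells in the results was not tested.

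A gene was called at an unadjusted p under 0.001 and a log2 fold change of at least 1 in either direction, in limma fits of log2(CPM + 1) over all 20 libraries, and among called genes the largest adjusted p was 0.00163. In this way 2923 genes (20.3% of those tested) were called higher in E1KD and 1055 (7.32%) higher in TGFβ-treated NMuMG. The balance moved with the scaling. The median log2 fold change over all genes was 0.35, it was 0.06 after median-of-ratios scaling, and that scaling gave 1853 genes higher in E1KD and 1661 higher after TGFβ. Without E1KD replicate 1 the counts were 1941 and 1334, and without replicate 2 they were 4249 and 883. The main counts below are therefore given with the number of their genes called in the same direction in every one of 8 further settings (both rescalings, a fit of 10 libraries, a replicate block, and the omission of each of the 4 libraries in turn). This stricter rule, set after the data were seen, kept 1591 genes (11%) higher in E1KD and 843 (5.85%) higher after TGFβ. The share of a list is read against these percentages, and a member at 1 CPM in one group only had to differ in order to be tested. Among the 2923 genes, 2223 were protein coding and 577 were pseudogenes, whose near-identical parents may share their reads, and of the 1055 genes 902 were protein coding and 55 were pseudogenes.

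**Figure D1:**
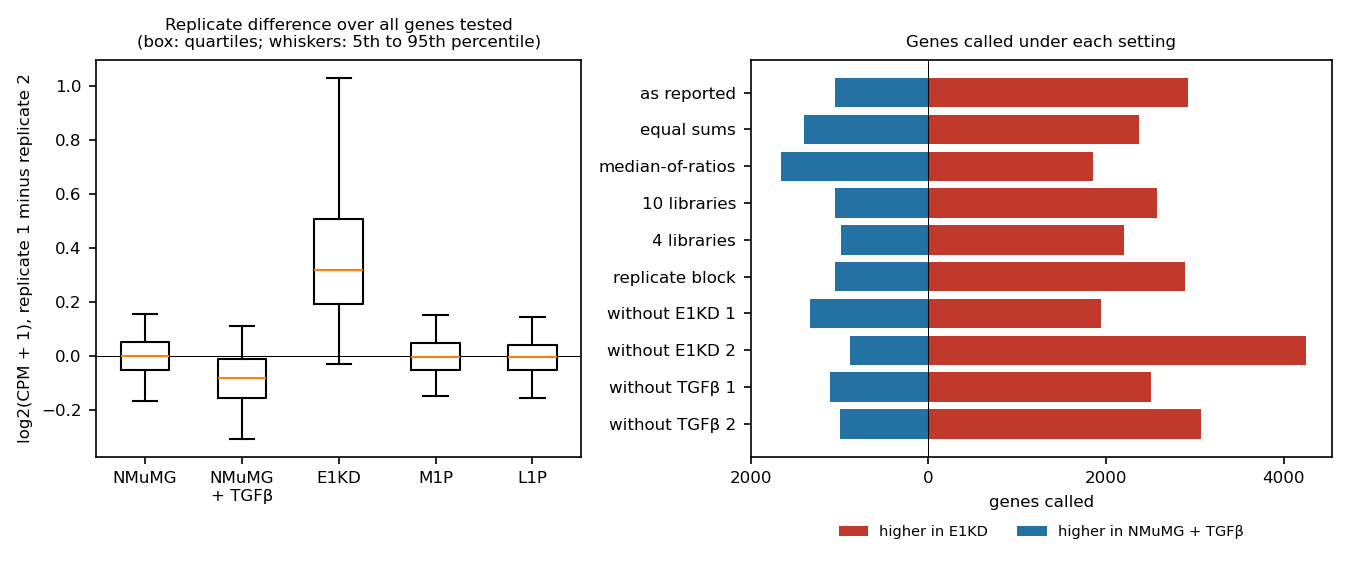
Left, difference between replicates 1 and 2 on the log2(CPM + 1) scale over the 14412 genes in 5 groups (line, median; box, quartiles; whiskers, 5th to 95th percentile); right, genes called higher in E1KD (red) and higher in TGFβ-treated NMuMG (blue) under 10 settings. The E1KD box lies wholly above 0 with a median of 0.32, the TGFβ box just below 0 with a median of -0.08, and the count on the E1KD side runs from 1853 to 4249.

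**Figure D2:**
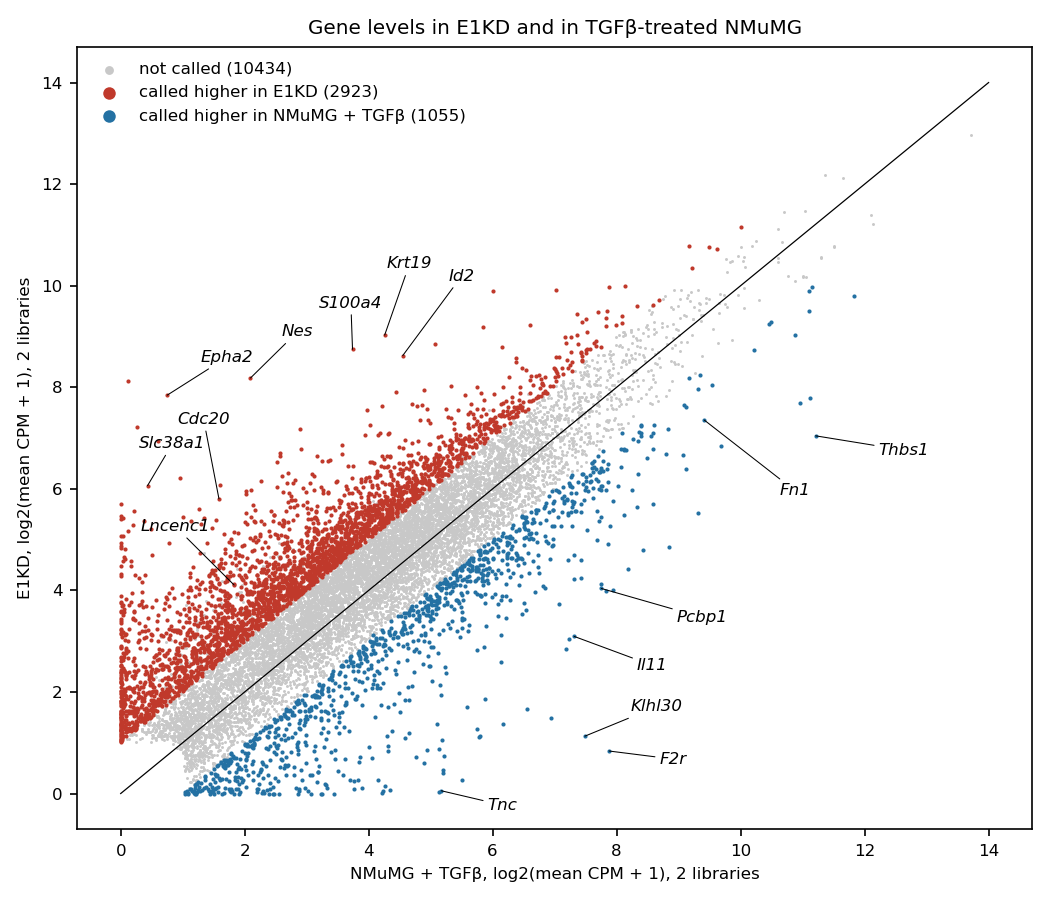
Mean level of each tested gene in TGFβ-treated NMuMG (horizontal) and E1KD (vertical) as log2(mean CPM + 1) of 2 libraries, with the line of equality. Red points were called higher in E1KD (2923), blue points higher after TGFβ (1055) and grey points not called (10434).

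The largest differences were nearly on-off, and of the 11 genes named here on the E1KD side 10 reached 1 CPM in E1KD only. Epha2, a receptor tyrosine kinase for ephrin-A ligands, stood at 266 and 192 CPM in E1KD and 0.818 and 0.5498 CPM after TGFβ (log2 fold change 7.08 ± 0.12). Nes, the intermediate filament of neural progenitors, stood at 301 and 278 CPM against 3.09 and 3.45 CPM. The actin crosslinker Flnc stood at 153 and 91.4 CPM against 0.284 and 0.766 CPM. The glutamine carrier Slc38a1 (69.6 and 62.1 CPM against 0.384 and 0.317), the palmitoylated ER membrane protein Ckap4 (53.3 and 48.5 against 0.0167 and 0), the phospholipid flippase Atp11a (47.7 and 36.7 against 0.0167 and 0.0333) and the zinc finger gene Zfp518b (34.0 and 31.5 against 0 and 0.0167) were likewise near 0 in the treated cells. Tead2, a DNA-binding partner of YAP, was listed at 0 in both TGFβ libraries and at 50.1 and 36.8 CPM in E1KD, and the heparan sulfate proteoglycan Gpc1 was likewise listed at 0 in both and at 47.1 and 36.2 CPM in E1KD. Noncoding genes belong here as well, Gm26880 with 414 and 139.8 CPM against 0.1002 and 0.0666 and RP24-378G4.3 with 154 and 142 CPM against 0.150 and 0.250. In untreated NMuMG, Epha2, Nes and Slc38a1 were low as in the treated cells (Epha2 1.93 and 2.13 CPM, Nes 0.0531 and 0.132 CPM, Slc38a1 0.0531 and 0.0189 CPM), while Nes stayed high at 220.4 and 218 CPM in M1P and at 368 and 367 CPM in L1P.

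In the other direction, F2r, the thrombin receptor PAR1, stood at 228 and 241 CPM after TGFβ and 0.945 and 0.628 CPM in E1KD (log2 fold change -7.05 ± 0.08). Klhl30, a BTB-kelch gene, stood at 172 and 185 CPM against 1.12 and 1.26 CPM. Lmcd1, a LIM-domain cofactor, stood at 119 and 125 CPM against 2.22 and 1.37. Untreated NMuMG parts these genes into 2 kinds: Klhl30 and Lmcd1 were low there (Klhl30 0.0708 and 0.0566 CPM, Lmcd1 2.02 and 2.13 CPM), whereas F2r stood at 41.7 and 42.5 CPM. Like F2r, 3 more genes of this end of the scale were expressed in the parental line and nearly absent from E1KD. They are Igfbp4, an IGF-binding protein (97.5 and 105 CPM in NMuMG, 42.1 and 47.0 after TGFβ and 0.315 and 0.0924 in E1KD), Gabre, a GABA-A receptor subunit (19.2 and 19.03 CPM in NMuMG, 34.6 and 33.7 after TGFβ, 0.0394 and 0 in E1KD), and Celsr2, an adhesion receptor of planar polarity (22.1 and 23.1 CPM in NMuMG, 33.2 and 38.3 after TGFβ, 0.571 and 0.203 in E1KD). The Wnt ligand Wnt9a (90.6 and 94.97 CPM after TGFβ against 2.40 and 1.94), Ctla2a (66.1 and 74.96 against 2.01 and 1.15), Tnc (33.5 and 36.7 against 0.0394 and 0.0370), Cldn4 (18.5 and 20.2 against 0.0787 and 0.0185) and Sox10 (8.53 and 8.45 against 0 and 0) were high only in the treated cells of the 3 groups. Of the 11 genes named on the TGFβ side, 7 reached 1 CPM in the treated cells only.

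Of the 43 lists, mitosis was the only one with every tested member called. All 36 mitosis genes tested were called higher in E1KD, in the main fit and in every setting, against 20.3% and 11% of all genes, with a median log2 fold change of 2.86 (2.55 after median-of-ratios scaling) and a range of 1.82 to 4.18. Of these, 3 reached 1 CPM in the E1KD libraries only. Cdc20, the activator of the anaphase-promoting complex, stood at 67.2 and 42.4 CPM in E1KD and 1.79 and 2.22 CPM after TGFβ. Plk1, a kinase of mitotic entry, stood at 74.0 and 48.6 against 3.03 and 3.06 CPM, and cyclin B1 (Ccnb1) at 57.3 and 36.1 against 3.32 and 3.62 CPM. Mki67, the Ki-67 proliferation antigen, stood at 618 and 539 against 57.0 and 56.1 CPM and Top2a, topoisomerase II alpha, at 248 and 125 against 13.3 and 15.99 CPM. E1KD replicate 1 read above replicate 2 in each of these genes, and both lay far above the treated cells. Untreated NMuMG lay between in Cdc20 (21.9 and 24.02 CPM) and in Mki67 (514 and 505 CPM). Against untreated NMuMG, all 36 were called lower after TGFβ and 3 were called higher in E1KD. The median log2 fold change of the 36 against NMuMG was -2.54 after TGFβ and 0.39 in E1KD, beside -0.13 and 0.22 over all genes. Within E1KD, replicate 1 exceeded replicate 2 by a median of 0.67 in these genes, so most of the list stood near its NMuMG level in E1KD. Of all 14412 genes, 1206 were called lower after TGFβ and 1090 higher in E1KD against NMuMG. In bulk RNA, a smaller share of dividing cells and less of these transcripts per cell cannot be told apart.

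Replication genes followed the same direction with fewer calls. Of 41 genes of the G1/S transition and DNA replication, 34 were called higher in E1KD (82.9%; 26 in every setting) and the lowest log2 fold change of the 41 was -0.45, with a median of 1.64. Mcm5, a subunit of the replicative helicase, stood at 128 and 71.3 CPM in E1KD against 4.64 and 5.18 CPM. Rrm2, the small subunit of ribonucleotide reductase, stood at 153 and 111 against 14.2 and 14.5 CPM, E2f8 at 46.9 and 30.8 against 2.99 and 3.21 CPM and Cdc6, the licensing factor, at 35.4 and 22.7 against 2.25 and 2.70 CPM. Cyclin D1 (Ccnd1) stood at 1060.2 and 881 CPM against 125 and 133 CPM, while Ccnd2 (146 and 128 against 181 and 192 CPM), Ccnd3 (68.9 and 56.1 against 62.0 and 67.1 CPM), Cdk4 and Cdk6 did not reach the limits. Without E1KD replicate 1, 29 of the 41 were called.

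Among 23 CDK inhibitors and p53 targets 2 were called higher in E1KD (8.70%) and 5 higher after TGFβ (21.7%). Higher after TGFβ were Cdkn2b, the p15 inhibitor that TGFβ is known to raise (96.5 and 97.2 CPM against 33.6 and 29.6), Cdkn2a (8.01 and 10.5 against 3.27 and 2.29), the BH3-only gene Pmaip1 (105 and 106 against 22.6 and 19.1), Btg2 (52.8 and 53.1 against 15.4 and 13.2) and Zmat3, and 4 of these were called in every setting. Cdkn2c, the p18 inhibitor, and Gtse1, which accumulates in G2, were higher in E1KD (Cdkn2c 21.5 and 19.1 against 2.75 and 2.85 CPM, Gtse1 71.3 and 48.9 against 9.03 and 9.26 CPM). Cdkn1a (p21) did not differ past the limits, at 146 and 122 against 92.1 and 100.4 CPM, nor did the p53 target Mdm2, at 113 and 91.3 against 84.6 and 83.5 CPM.

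Genes of late cell cycle share a promoter element, the cell cycle genes homology region (CHR), bound by the DREAM and MuvB-FOXM1 complexes. The promoters of 3 such members are shown because the whole list moved together. They were chosen among members whose window holds TTTGAA, the letters of that element. Each is the RefSeq window from 250 bases before to 50 after the start site (build GRCm38.p6, 5′ to 3′ on the gene's strand), with TTTGAA on either strand in capitals.
Cdc20 (chr4:118437294-118437593, minus strand): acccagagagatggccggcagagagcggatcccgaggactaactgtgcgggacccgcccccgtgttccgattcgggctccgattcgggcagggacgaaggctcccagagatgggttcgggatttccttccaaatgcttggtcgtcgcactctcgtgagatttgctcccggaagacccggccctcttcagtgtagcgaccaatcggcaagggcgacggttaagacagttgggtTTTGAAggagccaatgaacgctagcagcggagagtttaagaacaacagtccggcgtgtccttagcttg
Ccnb2 (chr9:70421505-70421804, minus strand): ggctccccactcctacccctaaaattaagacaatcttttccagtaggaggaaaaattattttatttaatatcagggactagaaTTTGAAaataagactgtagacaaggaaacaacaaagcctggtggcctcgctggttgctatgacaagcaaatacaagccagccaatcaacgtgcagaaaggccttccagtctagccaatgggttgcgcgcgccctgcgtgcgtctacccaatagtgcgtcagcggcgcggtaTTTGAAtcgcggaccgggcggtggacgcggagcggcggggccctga
Cdk1 (chr10:69352863-69353162, minus strand): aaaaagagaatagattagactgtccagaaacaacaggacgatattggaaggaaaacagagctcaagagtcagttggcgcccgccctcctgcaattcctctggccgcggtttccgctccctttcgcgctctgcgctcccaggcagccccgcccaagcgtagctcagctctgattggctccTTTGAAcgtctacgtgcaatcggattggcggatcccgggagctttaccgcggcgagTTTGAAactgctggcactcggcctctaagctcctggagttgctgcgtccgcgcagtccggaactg
Ccnb2 (cyclin B2) stood at 25.8 and 10.7 CPM in E1KD against 0.951 and 1.38 CPM, and Cdk1, the mitotic kinase, at 88.3 and 40.2 against 7.76 and 8.96 CPM. Of the 36 called mitosis genes, 30 had a window in the table and 21 of these (70.0%) held TTTGAA on either strand, as did 17.9% of all 32851 windows and 20.2% of all genes with a window. Of the 27 called replication genes with a window, 4 held it (14.8%). CCAAT, the letters bound by NF-Y, were in windows of 22 of the 30 mitosis genes (73.3%) and in those of 41.1% of all genes. These letters were chosen after the calls were seen, and a match is a description of sequence, not a site.

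**Figure D3:**
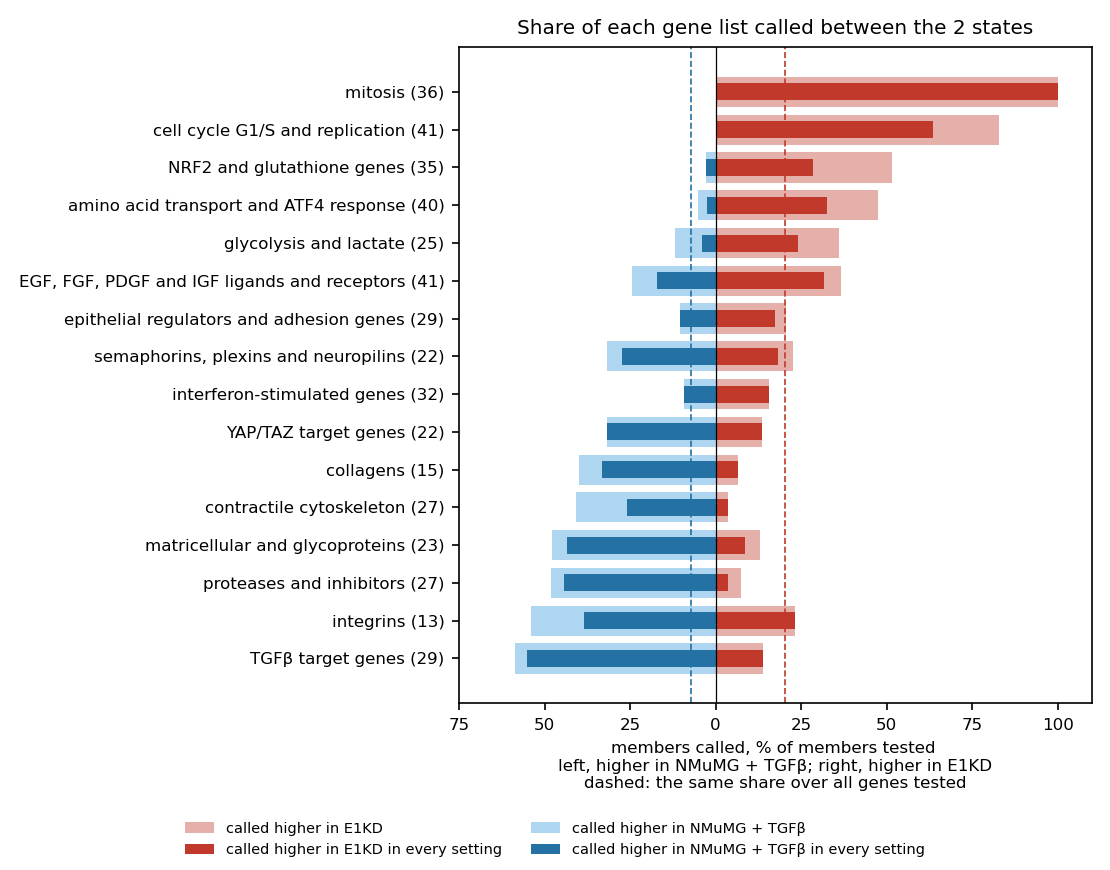
Share of tested members of 16 gene lists (number tested in parentheses) called higher in E1KD (red, right) or higher in TGFβ-treated NMuMG (blue, left); narrow dark bars show members called in every setting, and dashed lines the shares over all genes, 20.3% and 7.32%. Mitosis reaches 100% on the right, and the TGFβ target, integrin and protease lists reach 58.6%, 53.8% and 48.1% on the left.

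TGFβ target genes parted the states in the opposite sense. Of 29 tested, 17 were called higher in the treated cells (16 in every setting; background 7.32% and 5.85%) and 4 higher in E1KD, with a median log2 fold change of -1.22. The interleukin Il11 stood at 152 and 164 CPM after TGFβ against 8.46 and 6.62 CPM in E1KD. Tenascin C (Tnc) and Col1a1 were close to absent from E1KD. Tnc stood at 33.5 and 36.7 CPM after TGFβ against 0.0394 and 0.0370 CPM, and Col1a1 at 30.1 and 38.4 against 1.08 and 0.591 CPM. Feedback genes belonged to the same group: the Smad repressor Skil stood at 183 and 196 CPM against 75.8 and 62.1, while Smad7, with 40.5 and 46.4 against 23.4 and 20.8 CPM, did not reach the limits. Hmga2, Tgif1 and Junb were not called either. E1KD was not silent for these targets. Against NMuMG, 8 of the 29 were called higher in E1KD and 17 higher after TGFβ. Over all 14412 genes, 1090 were called higher in E1KD than in NMuMG and 999 higher after TGFβ than in NMuMG. Of the 29 targets, 2 had reached 1 CPM in one group only, Tnc among them. No member called higher after TGFβ held the Smad palindrome GTCTAGAC in its window, among the 9 of 17 that had one, and 0.248% of all genes with a window did.

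The 4 members of that list on the E1KD side include all the Id genes tested, which encode helix-loop-helix inhibitors of differentiation that TGFβ lowers and BMP raises in epithelial cells. Id2 stood at 430.5 and 357 CPM in E1KD, 23.1 and 21.7 CPM after TGFβ and 334 and 312 CPM in NMuMG. Id1 stood at 253 and 223 CPM against 21.02 and 20.3 CPM, with 85.9 and 92.1 in NMuMG. Id3 stood at 67.9 and 55.4 CPM against 3.12 and 3.47 CPM, with 8.001 and 7.83 in NMuMG. All 3 genes were called below NMuMG after treatment, and Id1 and Id3 were called above it in E1KD. Id2 was not called in E1KD against NMuMG. Its log2 fold change there was 0.28, close to the median of 0.22 over all genes in that comparison. The other one was Itgb6, a chain of the integrin that activates latent TGFβ (34.6 and 27.8 against 7.98 and 9.10 CPM).

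Of 32 ligands, receptors and Smads of the TGFβ family tested, 3 were called higher in E1KD (9.38%) and 7 higher after TGFβ (21.9%). The ligands Bmp7 and Bmp2 were higher in E1KD, and Bmp4 was not called. Bmp7 stood at 18.03 and 13.4 CPM in E1KD, 1.69 and 1.77 after TGFβ and 9.81 and 9.45 in NMuMG, and Bmp2 at 5.31 and 4.29 CPM in E1KD and at 0 in both treated libraries. Ltbp4, a latent TGFβ-binding protein, was the other (10.3 and 5.56 against 0.618 and 0.716 CPM). Of the 32, 3 had reached 1 CPM in one group only, Bmp2 and Ltbp4 among them. Lrrc32 (GARP), which tethers latent TGFβ to the cell surface, stood at 142 and 155 CPM after TGFβ, 7.32 and 7.21 CPM in E1KD and 0.0885 and 0.245 in NMuMG. The procollagen proteinase Bmp1 (128 and 139.7 against 14.4 and 10.1 CPM) and follistatin (Fst, 43.7 and 44.6 against 9.66 and 7.58 CPM), which traps activins, were also higher after TGFβ. The receptors Tgfbr1 (75.3 and 62.2 in E1KD and 72.2 and 76.7 CPM after TGFβ) and Tgfbr2 (73.4 and 61.0 CPM in E1KD and 91.7 and 95.7 after TGFβ) and the mediator Smad3 (149 and 127 CPM in E1KD and 101 and 106 after TGFβ) did not reach the limits. After median-of-ratios scaling, 11 members of this list were called higher after TGFβ in place of 7.

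**Figure D4:**
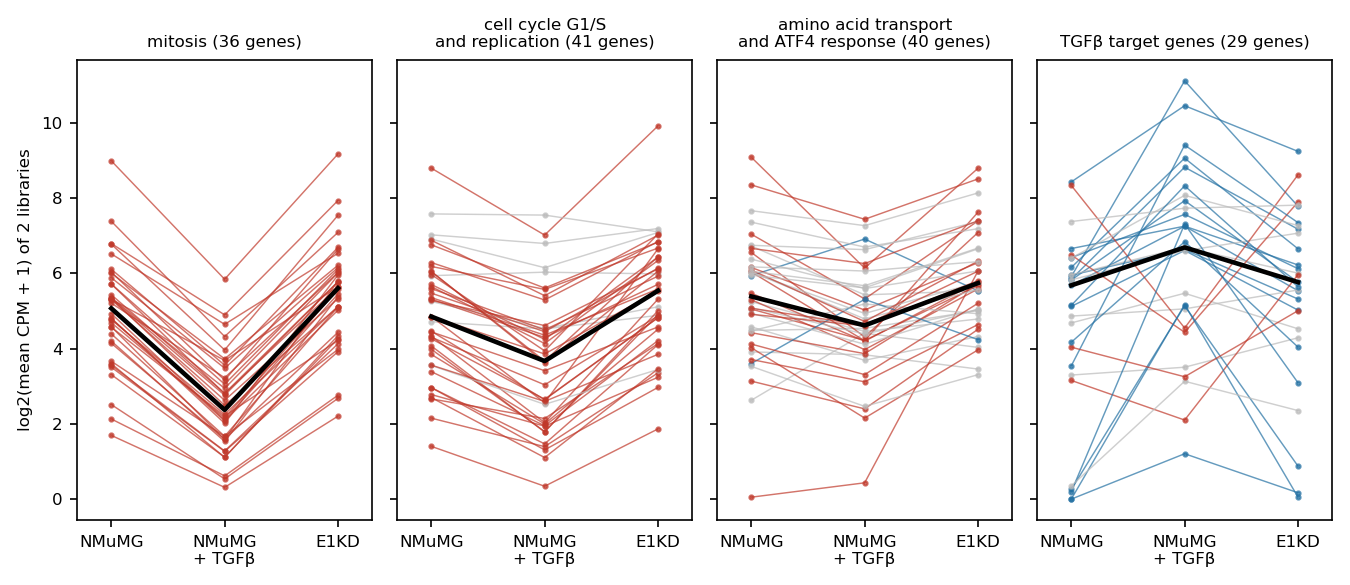
Level of each tested member of 4 gene lists as log2(mean CPM + 1) of 2 libraries in untreated NMuMG, TGFβ-treated NMuMG and E1KD; red, called higher in E1KD than after TGFβ; blue, called higher after TGFβ; grey, not called; black, the median of the list. The mitosis median falls from 5.07 in NMuMG to 2.37 after TGFβ and stands at 5.61 in E1KD, and the TGFβ target median is 5.68, 6.69 and 5.77 in the same order.

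Of 23 matricellular and glycoprotein genes of the extracellular matrix, 11 were called higher after TGFβ (47.8%; 10 in every setting), 3 higher in E1KD (13.0%) and 9 on neither side, and 7 of the 23 had reached 1 CPM in one group only. Fibronectin (Fn1) stood at 618 and 745 CPM after TGFβ, 206 and 119 CPM in E1KD and 10.8 and 10.5 CPM in NMuMG, so both states lay above the parental line and the treated cells further (log2 fold change between them -2.11 ± 0.17). Thrombospondin 1 (Thbs1), which activates latent TGFβ, stood at 2261 and 2479 CPM after TGFβ against 152 and 110.2 CPM. Has2, the hyaluronan synthase, stood at 4.11 and 4.56 against 0.0591 and 0.0554 CPM. Tenascin X (Tnxb) and Smoc1, a BMP-binding matrix protein, ran the other way (Tnxb 51.2 and 33.9 against 0.985 and 1.05 CPM, Smoc1 23.2 and 19.6 against 0.150 and 0.09996 CPM). Sparc (494 and 380.0 CPM in E1KD and 342 and 361 after TGFβ) and Wisp1 (176 and 150.2 CPM in E1KD and 145 and 150.4 after TGFβ) were not called, and Wisp1 stood at 7.50 and 8.50 CPM in NMuMG.

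Among 15 collagens, 6 were called higher after TGFβ (40.0%), 1 higher in E1KD (6.67%) and 8 on neither side, and median-of-ratios scaling gave 9 on the TGFβ side. Besides Col1a1, the basement membrane chains Col4a3 (7.41 and 6.56 against 1.38 and 1.04 CPM) and Col4a4 (6.89 and 7.80 against 2.36 and 1.40 CPM), Col7a1 of anchoring fibrils (10.98 and 14.6 against 4.68 and 2.88 CPM) and Col27a1 (182 and 188 against 66.7 and 56.2 CPM) were higher after TGFβ. Col12a1 was higher in E1KD (14.4 and 9.63 against 1.80 and 2.23 CPM). Of the 15 collagens, 2 had reached 1 CPM in one group only. Of 16 enzymes and chaperones that process collagen, 5 were called on each side (31.2%), all of them in every setting. The shares over all genes were 20.3% higher in E1KD and 7.32% higher after TGFβ, or 11% and 5.85% in every setting. Of the 16, 2 had reached 1 CPM in one group only. Serpinh1 (HSP47), the collagen chaperone, stood at 71.5 and 61.2 CPM in E1KD, 1.77 and 2.299 after TGFβ and 0.0354 and 0.0943 in NMuMG, and the procollagen C-proteinase enhancer Pcolce at 78.0 and 39.4 against 2.77 and 3.35 CPM. The crosslinking oxidases went apart, with Loxl4 at 78.8 and 58.9 CPM in E1KD against 10.3 and 10.01, and Loxl2 at 85.4 and 70.2 CPM against 313 and 335. Laminins and basement membrane genes showed 3 calls of 12, all higher after TGFβ (25%; 5 calls after median-of-ratios scaling), and only Agrn kept its call in every setting (361 and 414 against 186 and 118 CPM).

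Integrins are the receptors of such matrix proteins. Of 13 tested, 7 were called higher after TGFβ (53.8%; 5 in every setting) and 3 higher in E1KD (23.1%). Itgb3, the beta chain of the vitronectin receptor, stood at 229 and 246 CPM after TGFβ against 42.3 and 32.6, its partner Itgav at 163 and 159 against 66.0 and 52.5, the fibronectin receptor chain Itga5 at 109.5 and 121 against 35.1 and 25.9 and the collagen receptor chain Itga2 at 226 and 225 against 68.3 and 56.5 CPM. Itgb7 (7.85 and 3.97 against 0.0167 and 0.117 CPM) and the collagen receptor chain Itga1 (10.4 and 8.48 against 2.45 and 1.99 CPM) were higher in E1KD, as was Itgb6. Itgb7 was the 1 member of the 13 that had reached 1 CPM in one group only. Itga3, Itga6 and Itgb4, chains of laminin receptors, were not called. For Itga3 the values were 409 and 305 CPM in E1KD and 167 and 186 CPM after TGFβ, with a log2 fold change at the limit (1.00 ± 0.11).

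Proteases and their inhibitors showed 13 calls of 27 on the TGFβ side (48.1%; 12 in every setting) and 2 on the E1KD side (7.41%), and 8 of the 27, Mmp9, Serpinf1 and Plau among them, had reached 1 CPM in one group only. Mmp14, the membrane-anchored collagenase, stood at 118 and 130.0 CPM after TGFβ against 33.0 and 23.7 CPM. Mmp9, a gelatinase, stood at 5.73 and 6.88 against 0.0591 and 0.0185 CPM, Adamts6 at 33.8 and 33.3 against 6.77 and 4.92 CPM and the antiangiogenic serpin Serpinf1 at 9.13 and 10.8 against 0.807 and 0.388 CPM. Plau, the protease urokinase, stood at 8.48 and 6.82 CPM in E1KD and 0.0501 and 0.04998 CPM after TGFβ. Of the 7 members called higher after TGFβ that had a promoter window, 3 (Mmp10, Mmp12 and Mmp13) held the AP-1 letters TGANTCA on either strand (42.9%), as did 8.97% of all genes with a window. The window of Mmp13, an interstitial collagenase, is shown with that match in capitals, because AP-1 sites of collagenase promoters are textbook examples.
Mmp13 (chr9:7272264-7272563, plus strand): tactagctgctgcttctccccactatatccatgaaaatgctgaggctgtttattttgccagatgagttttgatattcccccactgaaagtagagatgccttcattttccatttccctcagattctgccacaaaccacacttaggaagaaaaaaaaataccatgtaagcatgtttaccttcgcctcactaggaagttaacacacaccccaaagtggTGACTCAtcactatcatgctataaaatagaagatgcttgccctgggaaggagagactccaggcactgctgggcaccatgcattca
Mmp13 itself stood at 8.45 and 8.35 CPM after TGFβ, 3.58 and 2.46 CPM in E1KD and 5.58 and 6.24 CPM in NMuMG. In these values the treated cells lay above the parental line and E1KD below it. Mmp13 was not among the genes called in opposite directions from NMuMG.

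Of 27 genes of the contractile cytoskeleton, 11 were called higher after TGFβ (40.7%; 7 in every setting), 1 higher in E1KD (3.70%) and 15 on neither side. Palladin (Palld), an actin bundler of stress fibers, stood at 108 and 115 CPM after TGFβ against 18.03 and 14.1. Transgelin (Tagln) stood at 8.04 and 8.26 against 0.516 and 0.381 CPM, and smooth muscle actin (Acta2) at 1.32 and 1.999 against 0.0591 and 0.0554 CPM, so that Acta2 was near the lower limit of the filter even after TGFβ. Cald1 (715 and 773 against 291 and 233 CPM), Cnn2 (147 and 148 against 47.9 and 39.4) and Cnn3 (215 and 219.8 against 73.4 and 56.9) were the abundant members called. Fhl1, a LIM protein of muscle, was higher in E1KD (19.9 and 14.01 against 0.384 and 0.167 CPM). Of the 27, 4 had reached 1 CPM in one group only, Tagln, Acta2 and Fhl1 among them. Flna (813 and 456 in E1KD and 607 and 706 after TGFβ), Myh9 (888 and 518 CPM in E1KD and 731 and 876 after TGFβ) and Tpm1 (524 and 407 CPM in E1KD and 774 and 822 after TGFβ) were not called, and for the first 2 the groups overlapped. Of the 10 members called higher after TGFβ with a window, 1 (Cnn2) held a CArG box, the letters bound by SRF, against 1.81% of all genes with a window. After median-of-ratios scaling 13 members were called on the TGFβ side.

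Targets of YAP and TAZ, the coactivators that respond to cell stretch, had 7 of 22 members called higher after TGFβ (31.8%) and 3 higher in E1KD (13.6%), all in every setting. Amotl1 (153 and 164 against 19.1 and 16.2 CPM), the ectonucleotidase Nt5e (30.6 and 32.4 against 3.86 and 3.40 CPM), tissue factor F3 (125 and 125 against 33.5 and 23.5 CPM) and Cyr61 (369 and 399.8 against 126 and 91.7 CPM) were higher after TGFβ. Ctgf, which is also on the TGFβ list, stood at 1355 and 1465 against 659.6 and 554 CPM. Of the E1KD members, Birc5 (109.9 and 88.3 against 7.83 and 8.10 CPM) also belongs to the mitosis list. Ankrd1, Axl and Amotl2 were not called, and 1 of 5 members called higher after TGFβ with a window held CATTCC, the TEAD letters, against 16.6% of all genes with a window.

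Of the genes by which EMT is often scored, Cdh1, Cdh2, Ocln and Tjp1 were not called between the states, whereas Vim was called higher in E1KD and Cldn4 higher after TGFβ. E-cadherin (Cdh1) stood at 205 and 149 CPM in E1KD and 129 and 137 CPM after TGFβ, both below the 232 and 237 CPM of NMuMG, and did not reach the limits (log2 fold change 0.39 ± 0.10). N-cadherin (Cdh2) stood at 94.6 and 58.3 CPM in E1KD, 104 and 117 CPM after TGFβ and 21.6 and 21.8 CPM in NMuMG. Ocln stood at 10.7 and 7.82 CPM in E1KD, 9.51 and 9.03 CPM after TGFβ and 18.5 and 18.9 CPM in NMuMG. Tjp1 (ZO-1) overlapped between the groups, at 170.3 and 119 CPM in E1KD and 121 and 130.2 after TGFβ. Snai1, which represses E-cadherin, stood at 4.31 and 3.92 CPM in E1KD and 6.93 and 8.63 CPM after TGFβ with 0.230 and 0.321 CPM in NMuMG, and its log2 fold change between the states, -0.77 ± 0.09, was below the limit in size (adjusted p = 1.22e-06, limma). Vimentin (Vim) was called higher in E1KD, at 1470.1 and 1122 against 561 and 629.9 CPM, and lost the call in at least 1 setting. Of 19 EMT transcription factors, 2 were called on each side (10.5%), but median-of-ratios scaling gave 1 higher in E1KD and 6 higher after TGFβ, and 4 of the 19 had reached 1 CPM in one group only. Runx1 (67.9 and 70.7 after TGFβ against 13.9 and 12.03 CPM) and Zeb2 (50.3 and 53.3 against 18.6 and 15.6 CPM) were higher after TGFβ, Twist2 (4.61 and 3.52 in E1KD against 0 and 0.0167 CPM) and Sox9 (16.6 and 14.2 against 5.88 and 5.70 CPM, not in every setting) in E1KD, and Zeb1 was called on neither side (37.2 and 29.9 CPM in E1KD and 49.2 and 51.2 after TGFβ).

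**Figure D5:**
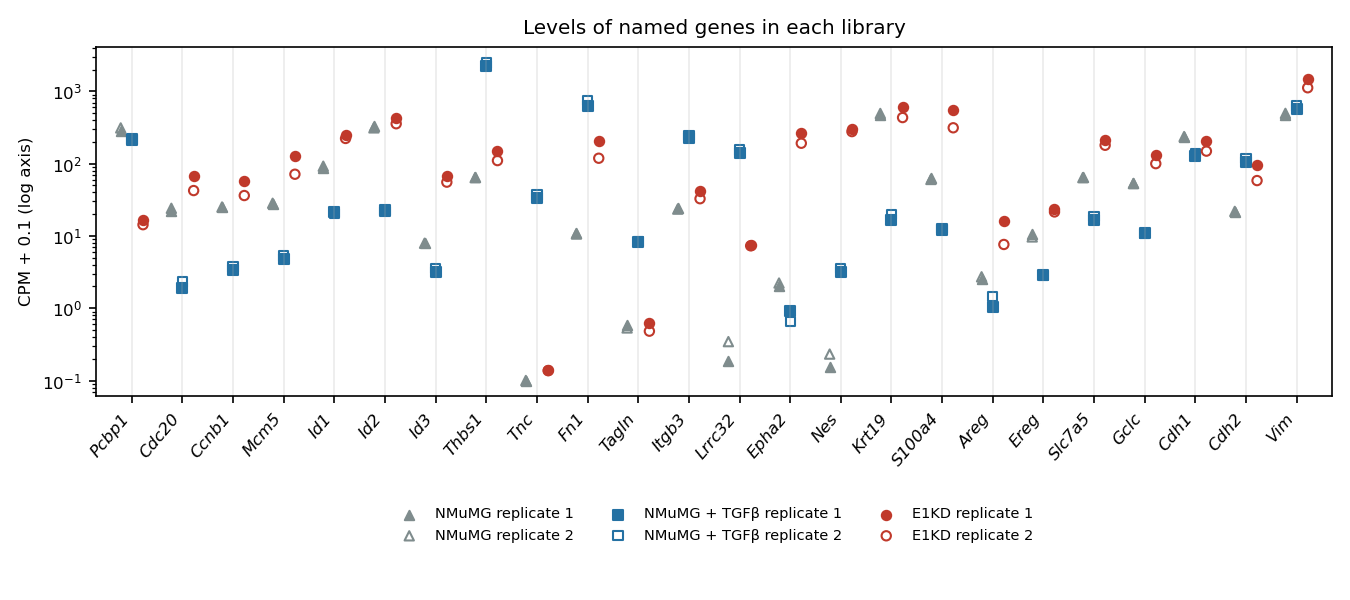
CPM in each library of untreated NMuMG (grey triangles), TGFβ-treated NMuMG (blue squares) and E1KD (red circles) for 24 named genes, on a log axis after adding 0.1; filled symbols, replicate 1; open symbols, replicate 2. Cell cycle and Id genes lie highest in E1KD and lowest after TGFβ, with Id2 in E1KD close to NMuMG. Matrix genes lie highest after TGFβ, and Cdh1 lies within a narrow band in all 3 groups.

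Of 29 epithelial regulators and adhesion genes, 6 were called higher in E1KD (20.7%; 5 in every setting) and 3 higher after TGFβ (10.3%), shares near the 20.3% and 7.32% of all genes, and 7 of the 29 had reached 1 CPM in one group only. Of the 3 members called higher in E1KD with a window, 1 (Foxa1) held CACCTG, the Snail and Zeb box, on either strand, against 22.6% of all genes with a window. The ETS factor Ehf stood at 16.99 and 12.6 CPM in E1KD against 1.55 and 1.85, with 51.2 and 48.9 in NMuMG, the Kruppel-like factor Klf5 at 40.2 and 34.4 against 7.31 and 6.60, and the desmosomal cadherin Dsg2 at 111 and 88.3 against 17.8 and 19.4 CPM. Grhl1, a grainyhead factor, stood at 5.29 and 4.19 against 0.501 and 0.616 CPM. The tight junction gene Cldn4 and Mal2 (4.07 and 3.85 CPM after TGFβ against 0 and 0.0185) were higher after TGFβ, although Cldn4 stood at only 0.124 and 0.113 CPM in the parental epithelium. Keratin 19 (Krt19), a simple epithelial keratin, stood at 607 and 434 CPM in E1KD, 16.7 and 19.6 CPM after TGFβ and 475 and 495 CPM in NMuMG, while Krt7 was higher after TGFβ (10.6 and 11.2 against 2.48 and 1.64 CPM). Krt8 and Krt18, the main pair in this line, were not called, and in all 2 of 7 keratins were called higher in E1KD (28.6%) and 1 higher after TGFβ (14.3%). Of 9 mesenchymal filament and cadherin genes, 4 were called higher in E1KD (44.4%) and 3 higher after TGFβ (33.3%). S100a4, a calcium-binding protein of motile cells, stood at 544 and 313 CPM in E1KD, 12.2 and 12.6 after TGFβ and 62.8 and 60.4 in NMuMG, and the cadherin Cdh6 at 542 and 570.3 CPM after TGFβ against 210.3 and 177.

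Of 41 growth factor ligands, receptors and binding proteins (EGF, FGF, PDGF, VEGF and IGF families, with a few other receptor tyrosine kinases and ligands), 15 were called higher in E1KD (36.6% against 20.3% of all genes; 13 in every setting) and 10 higher after TGFβ (24.4% against 7.32%; 7 in every setting), and 10 of the 41 had reached 1 CPM in one group only. Of the EGF receptor ligands, 4 were called higher in E1KD: Ereg at 23.7 and 21.4 CPM against 2.79 and 2.76, Areg at 15.8 and 7.52 against 0.935 and 1.35, Btc at 4.37 and 3.88 against 0.434 and 0.367 and Tgfa at 39.0 and 36.6 against 14.1 and 14.5 CPM. Their receptor Egfr was not called (89.8 and 72.5 CPM in E1KD and 107 and 114 after TGFβ). PDGF ligands were on the TGFβ side, Pdgfa at 69.8 and 68.8 CPM against 8.52 and 6.91 and Pdgfb at 508 and 563 against 109.6 and 90.3 CPM, and so was the receptor Pdgfrb (11.6 and 12.3 against 0.256 and 0.166 CPM). The FGF and IGF families had members on both sides. Fgfbp1, which releases FGFs from the matrix, stood at 14.5 and 11.9 CPM in E1KD against 0.0835 and 0.0333 CPM. Igf2r, which clears IGF2, stood at 48.9 and 28.4 CPM in E1KD against 1.35 and 1.57 CPM, and Igfbp4 was nearly confined to NMuMG and treated NMuMG among the 5 groups of this kind of library.

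Genes induced by ERK signaling, which EGF receptor ligands activate, included 6 of 27 AP-1 and immediate early genes called higher in E1KD (22.2%; 5 in every setting) and 2 called higher after TGFβ (7.41%), shares near the background on both sides. The AP-1 letters were in 0 of the 3 windows that the 6 had. Of the 27 genes, 3 had reached 1 CPM in one group only. Fosl1 (Fra-1) stood at 77.8 and 63.8 CPM in E1KD against 5.76 and 6.26, the ERK phosphatase Dusp6 at 67.7 and 59.2 against 22.4 and 24.7, the feedback inhibitor Spry2 at 12.6 and 10.6 against 2.80 and 2.90 and Phlda1 at 56.4 and 51.3 against 19.01 and 21.6 CPM. Dusp4 was opposite, at 111 and 117 CPM after TGFβ against 35.3 and 30.03. The abundant Junb (229 and 220.2 CPM in E1KD and 212 and 213 after TGFβ) and Fosl2 were not called.

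In the Wnt pathway, 8 of 27 members were called higher in E1KD (29.6%; 7 in every setting) and 5 higher after TGFβ (18.5%), against 20.3% and 7.32% of all genes. Median-of-ratios scaling gave 7 and 8, and 6 of the 27 had reached 1 CPM in one group only. Wnt4 (11.97 and 9.81 CPM in E1KD against 0.0501 and 0.0333), Wnt7a (10.1 and 7.47 against 1.49 and 1.53), the receptor Lgr5 (2.46 and 1.35 against 0 and 0) and the Wnt feedback ligase Rnf43 (33.1 and 28.2 against 3.36 and 3.98) were higher in E1KD. Wnt9a and the receptor Fzd8 (2.37 and 3.17 CPM against 0 and 0) were higher after TGFβ. In the Notch pathway, 5 of 17 were called on each side (29.4%, against the same 20.3% and 7.32%). In every setting the counts were 3 higher in E1KD and 5 higher after TGFβ. The receptor Notch1 (21.04 and 14.7 against 5.12 and 5.76 CPM) and the atypical ligand Dlk2 (21.1 and 16.5 against 0.351 and 0.267 CPM) were higher in E1KD. The ligands Jag1 (92.1 and 105 against 44.7 and 33.2 CPM) and Dll4 (3.74 and 4.85 against 0.629 and 0.517 CPM) were higher after TGFβ. Of the 17, 2 had reached 1 CPM in one group only, Dlk2 and Dll4.

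Of 40 genes of amino acid transport and the ATF4 response, 19 were called higher in E1KD (47.5% against 20.3% of all genes) and 2 higher after TGFβ (5%). In every setting the count on the E1KD side was 13 (32.5% against 11%), and without E1KD replicate 1 it was 13. Besides Slc38a1, the leucine carrier Slc7a5 stood at 215 and 179.6 CPM in E1KD against 16.6 and 18.4, and the glutamine carrier Slc1a5 at 150.1 and 120.1 against 17.99 and 19.8 CPM. Serine synthesis enzymes were on the same side, Psat1 at 512 and 376 against 68.8 and 70.7 CPM and Phgdh at 215 and 119.9 against 34.1 and 44.0 CPM, as were asparagine synthetase Asns (61.4 and 32.8 against 13.6 and 15.8 CPM) and the cystine carrier Slc7a11 (62.9 and 41.2 against 12.3 and 14.9 CPM). In NMuMG Psat1 stood at 549 and 539.9 CPM and Slc7a5 at 65.7 and 64.1 CPM. Slc38a2, Slc3a2 and Slc7a1 were not called. The letters ATTGCATCA, a composite site of ATF4 and C/EBP, were in the windows of 2 of the 13 called members with a window (Aars and Iars), against 0.222% of all genes with a window. That of the isoleucyl-tRNA synthetase gene Iars is shown with the match in capitals.
Iars (chr13:49681880-49682179, plus strand): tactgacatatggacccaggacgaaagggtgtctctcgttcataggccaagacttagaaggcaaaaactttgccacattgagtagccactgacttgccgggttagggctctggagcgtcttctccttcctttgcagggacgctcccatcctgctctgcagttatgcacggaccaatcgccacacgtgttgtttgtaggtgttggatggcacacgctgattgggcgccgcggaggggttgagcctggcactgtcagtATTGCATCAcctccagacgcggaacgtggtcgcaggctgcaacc
Iars stood at 70.3 and 39.9 CPM in E1KD against 21.7 and 25.2 CPM, and after median-of-ratios scaling its log2 fold change of 1.15 was 0.82, no longer past the limit.

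Antioxidant genes of the NRF2 and glutathione group had 18 of 35 called higher in E1KD (51.4% against 20.3% of all genes) and 1 higher after TGFβ (2.86%), but 10 of the 18 in every setting (28.6% against 11%) and 12 without E1KD replicate 1. Gclc, which limits glutathione synthesis, stood at 131 and 99.9 CPM in E1KD against 11.02 and 10.7, the retinal dehydrogenase Aldh1a1 at 112 and 71.9 against 8.46 and 8.46, the glutathione transferase Gsta4 at 18.2 and 10.6 against 0.467 and 0.983 and transketolase (Tkt) at 273 and 129 against 24.97 and 31.0 CPM. Prdx4, a peroxiredoxin of the ER, was the exception and stood at 6.26 and 5.88 CPM after TGFβ against 0.0787 and 0.0924. Of the 35 genes, 3 had reached 1 CPM in one group only. Glycolysis genes were called higher in E1KD in 9 of 25 cases (36%; 6 in every setting, or 24%) and higher after TGFβ in 3 (12%). Pfkp (34.7 and 24.2 against 1.47 and 1.76 CPM), the muscle-type pyruvate kinase gene Pkm (2189.5 and 1343 against 518 and 629.9 CPM), Aldoa (709 and 339 against 147 and 179 CPM) and the lactate carrier Slc16a1 (99.4 and 81.5 against 24.3 and 24.7 CPM) were higher in E1KD, and hexokinase 2 (Hk2) after TGFβ (250.04 and 269 against 73.9 and 57.4 CPM). Replicate 1 of E1KD exceeded replicate 2 by 1.08 in Tkt, 0.71 in Pkm and 1.06 in Aldoa on the log2 scale, beside a median of 1.10 in ribosomal protein genes, and all 3 kept their calls without it.

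Lipid, stress and mitochondrial genes parted less. Of 25 cholesterol synthesis genes, 2 were called higher in E1KD (8%), 1 of them in every setting, and none higher after TGFβ. Fatty acid genes had 4 of 26 called on each side (15.4%), with Elovl6 (78.6 and 70.1 against 15.7 and 16.8 CPM) and Fabp5 (40.4 and 19.8 against 4.87 and 6.03 CPM) higher in E1KD and the desaturases Scd2 (2197 and 2337 against 1088 and 934 CPM) and Fads1 (273 and 294 against 117 and 99.5 CPM) higher after TGFβ. The chaperones Hspa5, Calr and Canx of the unfolded protein response were not called, and of the 23 genes of that list 3 were called higher in E1KD (13.0%) and 2 higher after TGFβ (8.70%; 4 after median-of-ratios scaling). All 13 mitochondrially encoded genes stood lower in E1KD, between -1.21 and -0.53 on the log2 scale, but 1 of them passed the limits (mt-Nd4, 2111 and 2285 CPM after TGFβ against 1017 and 883), and 12 did after median-of-ratios scaling.

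Axon guidance genes, the family that the study follows, were called on both sides. Platr18 (Lncenc1 in the table), a lincRNA of embryonic stem cells, stood at 17.9 and 14.6 CPM in E1KD, 2.40 and 2.70 CPM after TGFβ and 1.24 and 1.45 CPM in NMuMG, and the states differed by 2.27 ± 0.09 on the log2 scale (adjusted p = 1.91e-11, limma). Sema4f, a transmembrane semaphorin, stood at 19.999 and 15.6 CPM in E1KD and 22.1 and 24.5 CPM after TGFβ, both above the 0.0531 and 0.0754 CPM of NMuMG. The groups did not overlap, and the log2 fold change of -0.38 ± 0.11 was below the limit in size (adjusted p = 0.00496, limma; -0.70 after median-of-ratios scaling). Of 22 semaphorins, plexins and neuropilins, 5 were called higher in E1KD (22.7% against 20.3% of all genes) and 7 higher after TGFβ (31.8% against 7.32%). Sema3e (79.1 and 61.5 CPM in E1KD against 3.76 and 3.81) and the co-receptor Nrp1 (99.7 and 68.0 against 28.6 and 31.8) were higher in E1KD. Nrp2 (344 and 369.9 after TGFβ against 108 and 85.9), Sema4c (22.95 and 27.3 against 10.6 and 7.43) and Sema6d (4.52 and 4.55 against 1.10 and 0.887) were higher after TGFβ, so that the 2 neuropilins, co-receptors of class 3 semaphorins, stood on different sides. Plxna1, Plxnd1, Plxnb1 and Plxna2 were not called. Of 6 pluripotency genes and Platr RNAs, 4 were called higher in E1KD (66.7%; Platr18, Platr14, Klf4 and Klf5) and none higher after TGFβ.

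Ephrins, netrins and related genes gave 5 calls of 26 on each side (19.2%), and 5 of the 26 had reached 1 CPM in one group only. Epha2 and Epha7 (24.3 and 19.01 against 7.55 and 7.73 CPM), receptors of ephrin-A ligands, and Flrt2 (19.9 and 17.8 against 1.95 and 1.78 CPM), a ligand of Unc5 receptors, were higher in E1KD. The ligands Efna1 (40.3 and 43.7 against 14.8 and 11.3 CPM) and Efna4 (20.9 and 21.6 against 7.64 and 5.77 CPM) were higher after TGFβ, opposite to the receptor Epha2. Robo1, a receptor of Slit ligands, stood at 13.1 and 13.9 CPM after TGFβ and 12.9 and 12.7 CPM in NMuMG against 6.59 and 4.27 CPM in E1KD, and lost its call in at least 1 setting. Among 15 neural and progenitor genes, 8 were called higher in E1KD (53.3%) and 4 higher after TGFβ (26.7%), but 6 of the 15 had reached 1 CPM in one group only. Igsf11, a synaptic adhesion molecule, stood at 45.7 and 36.9 CPM in E1KD, 7.09 and 7.78 after TGFβ and 2.02 and 2.02 in NMuMG. The growth cone protein Gap43 stood at 3.11 and 1.81 CPM in E1KD and at 0 in both treated libraries. Sox10, the neural crest factor, and the postsynaptic Nlgn2 (75.7 and 89.2 against 25.3 and 21.05 CPM) were on the TGFβ side. The level of neuron and Schwann cell markers summed to between 0.992 and 1.09 CPM in E1KD and between 10.1 and 10.3 CPM after TGFβ, most of it Sox10, and Snap25 was at 0 in both treated libraries.

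Immune and surface genes showed small numbers of calls. Of 32 interferon-stimulated genes, 5 were called higher in E1KD (15.6% against 20.3% of all genes) and 3 higher after TGFβ (9.38% against 7.32%; 6 after median-of-ratios scaling), all in every setting. Of the 3 called members on the E1KD side with a window, 1 (Ifi203) held the interferon response letters GAAANNGAA on either strand, against 9.76% of all genes with a window. Of the 32 genes, 3 had reached 1 CPM in one group only. Parp12 (8.78 and 6.08 CPM against 0.0334 and 0) and Gvin1 (14.5 and 12.5 against 0.835 and 0.783) were higher in E1KD, and the immunity-related GTPases Irgm1 (126 and 124 against 34.2 and 28.8) and Irgm2 (11.6 and 10.6 against 1.60 and 1.33) after TGFβ. The class I heavy chain genes H2-K1 (29.9 and 23.4 against 5.26 and 5.63 CPM) and H2-D1 (14.98 and 11.6 against 2.003 and 1.93 CPM) were higher in E1KD while their shared light chain B2m was higher after TGFβ (169 and 171 against 64.7 and 37.2 CPM). Sca-1 (Ly6a) stood at 45.4 and 35.2 CPM in E1KD against 0.317 and 0.283, Ly6c1 at 25.9 and 19.9 against 0.117 and 0.133 and Ly6e at 85.7 and 70.0 against 7.48 and 7.53 CPM. The H2 and Ly6 families hold near-identical copies between which the authors' counting could have split reads. Among cytokines, Il33 (47.5 and 40.0 against 4.56 and 4.51 CPM) and the neutrophil chemokines Cxcl5 (175 and 135 against 30.3 and 31.3 CPM) and Cxcl1 (36.3 and 26.8 against 8.56 and 9.26 CPM) were higher in E1KD, and Lif (179 and 186 against 38.0 and 32.7 CPM) and Ccl7 (22.6 and 23.2 against 2.76 and 2.40 CPM) joined Il11 on the TGFβ side. The complement regulators Clu (772 and 872 against 144 and 83.5 CPM) and Cd55 (9.28 and 9.65 against 0.689 and 0.850 CPM) were higher after TGFβ. Against 20.3% and 7.32% of all genes, class I antigen presentation had 4 of 14 called higher in E1KD (28.6%) and 2 higher after TGFβ (14.3%). Chemokines and cytokines had 3 (17.6%) and 4 (23.5%) of 17, and complement had 1 (12.5%) and 2 (25%) of 8. In the cytokine list and in the complement list, 2 members each had reached 1 CPM in one group only. Ly6 and similar surface antigens had 6 (66.7%) and 1 (11.1%) of 9, of which 3 had reached 1 CPM in one group only. Sensors of foreign nucleic acid had 2 of 16 on each side (12.5%).

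Retinoid and xenobiotic enzymes had 5 of 13 members called higher in E1KD (38.5%) and 2 higher after TGFβ (15.4%). Cyp26b1, which degrades retinoic acid, stood at 38.1 and 34.1 CPM in E1KD, 0.334 and 0.466 after TGFβ and 2.67 and 2.47 in NMuMG, and the retinol transporter Stra6 at 32.1 and 20.7 against 2.59 and 2.67 CPM. The aldose reductase Akr1b3 stood at 221 and 229 CPM after TGFβ against 17.7 and 11.9 CPM. Of 12 Hox genes tested, 6 were called higher in E1KD (50%) and 1 higher after TGFβ (8.33%), and 4 of the 12 had reached 1 CPM in one group only. Hoxa10 stood at 11.04 and 8.65 CPM and Hoxa7 at 5.12 and 4.297 CPM in E1KD, each at 0 in both treated libraries, whereas Hoxb8 stood at 8.73 and 9.31 CPM after TGFβ against 1.77 and 2.35. Among 13 imprinted genes, 4 were called higher in E1KD (30.8%; 2 in every setting) and 5 higher after TGFβ (38.5%), and 6 of the 13 had reached 1 CPM in one group only. Peg3 (1956 and 2027 CPM after TGFβ against 215 and 194, with 692 and 682 in NMuMG) and Dio3 (15.1 and 14.3 in E1KD against 0.250 and 0.283, with 36.5 and 37.1 in NMuMG) parted the states widely in opposite directions. Airn, the noncoding RNA that represses Igf2r in cis, was listed at 0 in both E1KD libraries and at 6.09 and 6.36 CPM after TGFβ and 5.59 and 5.56 in NMuMG, while Igf2r had the reverse pattern. Airn overlaps the start of Igf2r on the other strand, and whether counting used the strand is not given in the sources used here.

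Other RNA-binding proteins changed less than Pcbp1. Of 39 poly(C)-binding proteins, hnRNPs and splicing regulators, 7 were called higher in E1KD (17.9%) and 3 of these in every setting, the splicing regulator Rbm47 (48.0 and 39.7 against 9.16 and 9.93 CPM), Mbnl3 (5.41 and 4.34 against 0.551 and 0.633 CPM) and Elavl2 (1.54 and 1.33 against 0 and 0). Of the 39, 2 had reached 1 CPM in one group only, Mbnl3 and Elavl2. The 17.9%, and the 7.69% in every setting, lay below the 20.3% and 11% of all genes. Pcbp1 was the only member called higher after TGFβ. Of 7 transcripts that hnRNP E1 is known to hold back at translation, 1 was called higher in E1KD (14.3% against 20.3% of all genes). Another 3 were called higher after TGFβ (42.9% against 7.32%). In every setting the counts were 1 and 2. Higher in E1KD was Dab2 (2.09 and 1.87 against 0.167 and 0.183 CPM), the 1 member that had reached 1 CPM in one group only. Higher after TGFβ were Msn (1155 and 1211 against 479 and 376 CPM), Zeb2 and Jak2 (47.4 and 49.3 against 26.6 and 17.5 CPM). These calls concern the RNA level only. After median-of-ratios scaling 5 of the 7 were called higher after TGFβ.

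Against untreated NMuMG as a common reference, the genes called between the states fell into a few patterns. Of the 2923 higher in E1KD, 811 were called lower after TGFβ and not called in E1KD, 649 were called higher in E1KD and not called after TGFβ, and 1344 were called against NMuMG in neither state. Among the 1591 called in every setting the same counts were 633, 528 and 324. Of the 1055 higher after TGFβ, 499 were called higher after TGFβ and not called in E1KD, 175 were called lower in E1KD and not called after TGFβ, and 283 were called in neither. Each state shares the NMuMG libraries in this account, so the counts are a description.

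A further pair of lines shares no library with this comparison. E1KD SCR and empty vector NMuMG, in the other kind of library, differed at 450 genes called higher (3.12% of the 14412) and 439 called lower (3.05%) in E1KD SCR. Of the 2923 genes higher in E1KD than after TGFβ, 341 were also called higher in E1KD SCR (11.7%, or 75.8% of the 450) and 18 called lower (0.616%). Of the 1055 genes higher after TGFβ, 228 were also called lower in E1KD SCR (21.6%, or 51.9% of the 439) and 12 called higher (1.14%). Pcbp1 stood at 3.28 and 3.46 CPM in E1KD SCR and 32.3 and 32.3 CPM in empty vector cells. Of the genes named above as nearly on-off, 10 of 11 on the E1KD side were also called higher in E1KD SCR and 6 of 11 on the TGFβ side also called lower. Gm26880, with the largest log2 fold change between the states (7.80), was not called there (0.0947 and 0.0477 against 0 and 0 CPM), nor were Klhl30, Wnt9a, Tnc, Cldn4 and Sox10. Among those shared were Epha2 (169.9 and 196 against 2.45 and 2.40 CPM), Nes (105 and 108 against 0.0411 and 0.0579), Slc38a1 (25.4 and 26.1 against 0.342 and 0.319), F2r (0.0135 and 0.0159 against 59.3 and 64.3) and Igfbp4 (0.0271 and 0.0159 against 57.1 and 53.9). Of the 36 mitosis genes 0 were called in that pair by the same limma rule, with a median log2 fold change of 0.24. At an unadjusted limma p under 0.05, 14 of them were higher and 2 lower, while 7290 of all 14412 genes passed that limit in either direction. Of the 29 TGFβ targets 2 were called higher and 1 lower. The Id genes are divided, with Id3 called higher (17.6 and 23.03 against 4.95 and 5.14 CPM) and Id2 not called (284 and 290.0 against 299.8 and 304 CPM). Platr18 was not called either (2.92 and 3.10 against 3.68 and 3.06 CPM). E1KD SCR carries a scrambled shRNA that E1KD does not, and a difference between the lines cannot be told apart from one between the kinds of library.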

How the data were processed

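RNA of NMuMG and lines derived from it was sequenced in 20 libraries (2 in each of 10 conditions). The authors aligned reads with Bowtie2 (version 2.2.5, build GRCm38.p6, as the submitters' processing notes list them), quantified genes in Partek, and deposited CPM values with 0.0001 added; the offset was subtracted here. Whole reads could not be recovered from the CPM steps (88.8% to 89.8% were whole within 0.05 reads in the 4 libraries), so no count test was run. Intervals of counting are not given, and 3 reads are used as the floor.

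Genes with at least 1 CPM in 2 of the 4 libraries were tested with limma (version 3.58.1, R 4.3.3; trend, two-sided, Benjamini-Hochberg adjustment) on log2(CPM + 1), in one fit of the 20 libraries that had a mean for each of the 10 conditions and left 10 degrees of freedom. Fold changes are on this scale and understate those of low genes. Genes were called where the p before adjustment was below 0.001 and the change was 1 or more on the log2 scale, up or down. The procedure was run on simulated data that gave a gene the same spread in every group. The simulation held no wider spread in E1KD and no shift of its replicate 1, so it cannot test the calls against these. Tables and plots used Python 3.11.15, numpy 2.4.6, pandas 2.3.3 and matplotlib 3.10.9.

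The comparison, the 43 gene lists and their members were chosen with earlier results of these data known, and a gene may be in several lists. Named are the genes that the study turns on, the 10 largest changes and the 5 smallest p-values in each direction whose groups did not overlap, per list up to 6 called members with the largest change and up to 4 uncalled members with the highest level, and the 6 widest of the genes that moved in opposite directions from NMuMG. Further members (among them Ccnb2, Cdk1, Mki67, Mmp13, Areg, Btc, Tgfa, Acta2, Ctgf, Skil, Asns, Iars, Pdgfb, Itgav and Slc7a11) were named after their values were seen. Promoter windows come from RefSeq, and 27025 genes have one. Alternatives were rescaling to equal sums or by median-of-ratios factors, pseudocounts of 0.1 and 0.5, other filters, fits of 10 or 4 libraries, a replicate block, and leaving out each library. Values of 3 members of these lists are not reported here, although the counts include them.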

Additional observations from a re-analysis of the deposited data

Results flagged for a closer look

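Against untreated NMuMG, 54 genes were called higher in E1KD and lower after TGFβ, and 29 were called lower in E1KD and higher after TGFβ. All of them kept the call between the 2 states in every setting. The calls against NMuMG were made in the main fit only, and some lie close to the limit. The 6 with the widest distance between the states are given here because both groups moved away from NMuMG in opposite directions. They were chosen by the contrast of the states itself, so their values are a description, and 4 of the 6 (F2r, Cyp21a1, Fam19a5 and Cyp26b1) reached 1 CPM in one of the 2 groups only, the one where they were high.

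The thrombin receptor F2r stood at 41.7 and 42.5 CPM in NMuMG, 0.945 and 0.628 in E1KD and 228 and 241 after TGFβ, and the log2 fold change between the states was -7.05 ± 0.08. S100a4, a calcium-binding protein of motile cells, stood at 62.8 and 60.4 CPM in NMuMG, 544 and 313 in E1KD and 12.2 and 12.6 after TGFβ (4.95 ± 0.16). Cyp26b1, which breaks down retinoic acid, stood at 2.67 and 2.47 CPM in NMuMG, 38.1 and 34.1 in E1KD and 0.334 and 0.466 after TGFβ (4.73 ± 0.09). The secreted protein gene Fam19a5 stood at 1.93 and 1.68 CPM in NMuMG, 41.4 and 35.1 in E1KD and 0.167 and 0.133 after TGFβ (5.09 ± 0.09). Cyp21a1, the steroid 21-hydroxylase gene, stood at 1.95 and 1.68 CPM in NMuMG, 0.335 and 0.296 in E1KD and 32.6 and 38.5 after TGFβ (-4.79 ± 0.08). Tbc1d16, a Rab GTPase-activating protein, stood at 7.02 and 6.66 CPM in NMuMG, 1.32 and 1.497 in E1KD and 49.7 and 55.4 after TGFβ (-4.47 ± 0.11). In E1KD SCR and empty vector cells, F2r stood at 0.0135 and 0.0159 against 59.3 and 64.3 CPM and Fam19a5 at 22.1 and 25.5 against 0.753 and 0.768 CPM.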

How the results depend on the processing

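The balance between the directions depended on scaling and on E1KD replicate 1. The main counts were 2923 genes higher in E1KD and 1055 higher after TGFβ; median-of-ratios scaling gave 1853 and 1661, and equal sums with only the 4 libraries in the fit (chosen after seeing the data) gave 1781 on the E1KD side. Leaving out 1 library in turn gave between 1941 (without E1KD replicate 1) and 4249 (without E1KD replicate 2) genes higher in E1KD. The cause was not tested. Of 265 named genes that were called, 240 kept their call in every one of the 8 settings, and none of the 420 named genes was reversed in an alternative run.

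For E1KD SCR against empty vector, 889 genes were called; a pseudocount of 0.1 gave 1355, and a mean of at least 5 CPM gave 563 of fewer genes tested. Deviations of same-numbered libraries did not run together (correlation -0.411 between E1KD and TGFβ). With the replicate block 3949 genes were called in place of 3978, and with only the 4 libraries in that fit 3205. Crossed pairing, added after seeing the data, gave 3973 with 20 libraries and 4134 with 4. Both blocked fits of 4 libraries had unlimited degrees of freedom in limma, so their counts cannot decide on pairing.

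With 2 libraries per group, the spread is largely borrowed from other conditions, and genes below about 1 CPM are limited by depth and by the pseudocount.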
